A study of Mus musculus with 24 samples.

Results

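The solute carrier genes of mouse BFU-E were examined in 24 single cells. A BFU-E (burst-forming unit-erythroid) is the earliest progenitor that gives rise to red cells alone. The 103 genes are the protein-coding genes whose symbol starts with Slc and a digit and that had 5 or more read counts in at least 6 of the 24 cells. They come from 371 such genes in the table, of which 109 passed this detection threshold. The rule left 8 named genes out, mainly carriers of iron and other metals, and 6 of these 8 had passed. The members were chosen by detection in these same cells, so that a member is found in 6 or more cells is a consequence of the choice and not a result. Of the 262 genes below the threshold, 175 reached 5 counts in no cell and 167 had 0 counts in every cell.

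At the edge of the threshold, 5 members were detected in exactly 6 cells. Their mean levels, in counts scaled to each cell's total (CPM), ran from 7.63 CPM for Slc38a7 to 24.4 CPM for Slc35f5. A further 14 Slc genes were detected in exactly 5 cells and were not taken, with means from 4.05 to 22.1 CPM. The levels inside and outside the threshold therefore overlap.

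All cells form 1 group of the strain C57/Bl6J, for which the labels give no altered gene and no treatment. Fetal liver was taken at embryonic day 14.5, freed of red cells and of cells with lineage markers, and sorted singly into a plate after staining for CD117, CD71 and CD24. No embryo is named for any cell, so a cell is not a replicate animal, and the group counts as 1 sample with no comparison group. For that reason no p-value was made from cells, and every spread below is over cells, which may differ in stage, in capture and in amplification.

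Solute carriers are membrane proteins that move amino acids, sugars, nucleotides, vitamins, metals and ions across the plasma membrane or into organelles. They are grouped into numbered families by sequence, and the number after Slc gives the family. Erythroid progenitors divide fast and prepare for haem synthesis, which begins and ends in the mitochondrion and uses glycine and iron. The mitochondrial carriers of the Slc25 family exchange nucleotides, phosphate and metabolites across the inner membrane. Klf1, a zinc finger transcription factor of the erythroid lineage, marks progress along it.

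Total counts ran from 876983 to 2155010 per cell, and 4767 to 7349 genes were detected per cell. All 8 BFU-E markers (Kit, Myb, Gata1, Klf1, Epor, Tfrc, Zfpm1 and Nfe2) were detected in at least 12 cells. The later erythroid list reached that in 1 of 6 genes, the megakaryocyte list in 1 of 6 with Pf4 and Ppbp at 0, and the myeloid list in 2 of 6 with Elane at 0. Klf1 itself was at 414 ± 308 CPM (mean ± SD over 24 cells, as throughout), with a lowest value of 0.810, a median of 411 and a highest of 1008 CPM. It was under 10 CPM in 5 cells, numbered 1, 9, 19, 23 and 24. In these 5 cells Epor, the erythropoietin receptor, was also at no more than 1.62 CPM. Gata1 was at 2.48, 2.85, 0 and 0 CPM in cells 1, 9, 19 and 24, but at 886 CPM in cell 23. The marker sums of other cell types had high peaks in single cells. Some of these markers were still found in many cells, as with those above, Alb in 10 cells and Pecam1 in 9. The myeloid sum reached 9624 CPM in cell 1, the hepatocyte sum 1130 CPM in cell 10 and the mast cell and basophil sum 887 CPM in cell 24, all of it Cpa3. The endothelial sum reached 457 CPM in cell 19, all of it Pecam1, with Cdh5 and Kdr at 0 in every cell.

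The members together held 0.969% ± 0.102 of a cell's counts, between 0.725% in cell 22 and 1.13% in cell 17. A cell had between 44 members detected, in cell 22, and 74, in cells 6 and 16, with a median of 64.5. The number of members detected went with the number of all genes detected across the cells (Spearman rho 0.85, Pearson r 0.86, n = 24). It was related less closely to total counts (rho 0.56) and to Klf1 (rho 0.48).

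Member by member, the mean level had a median of 44.5 CPM, against 47.9 CPM over the 8266 genes of all kinds detected in at least 6 cells. The members were detected in a median of 14 cells, against 17 for all these genes. Only 9 of the 103 members (8.74%) were detected in every cell, whereas 14.9% of the 8266 genes were. As a group the solute carriers thus had about the level of other genes but were found in fewer cells.

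Levels of different genes were compared per kilobase (kb) of exon, because longer transcripts give more reads. The mitochondrial carriers took the largest share. The 24 Slc25 members made up 56.9% ± 6.08 of the summed CPM per kb of all members, from 37.0% to 69.0% in single cells. The nucleotide sugar class, which is the Slc35 family, followed with 10.6% ± 2.58 and amino acid carriers with 9.19% ± 2.85. The remaining classes each held less than 6%: monocarboxylate and organic ion carriers 5.82% ± 1.92, metal carriers 5.59% ± 2.37, vitamin, choline and cofactor carriers 4.26% ± 2.34, sugar carriers 2.88% ± 1.94 and nucleoside carriers 2.49% ± 1.58. The phosphate and sulfate class held 0.936% ± 0.901, and the members Slc7a6os and Slc4a1ap, named for a carrier but not carriers themselves, 0.681% ± 0.557. Carriers of protons, sodium, chloride, bicarbonate and calcium were lowest, with 0.607% ± 0.463 from 6 members. These classes follow gene families, so some members sit beside carriers of another substrate. Examples are the urea carrier Slc14a1 among the organic ions, and Slc17a5 and Slc17a9 in the phosphate and sulfate class. In the nucleotide sugar class the highest members were Slc35a4, at 122 CPM per kb, and Slc35b2, at 58.3. Slc35b2 carries the sulfate donor PAPS, so the share of this class is not that of nucleotide sugar carriers alone.

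The share of the mitochondrial class came from a few genes. The median member of that class was at 11.4 CPM per kb, close to the 10.6 of the monocarboxylate and organic ion carriers and under the 13.3 of the sugar carriers. The carriers of small ions had the lowest median, 2.45 CPM per kb.

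**Figure D1:**
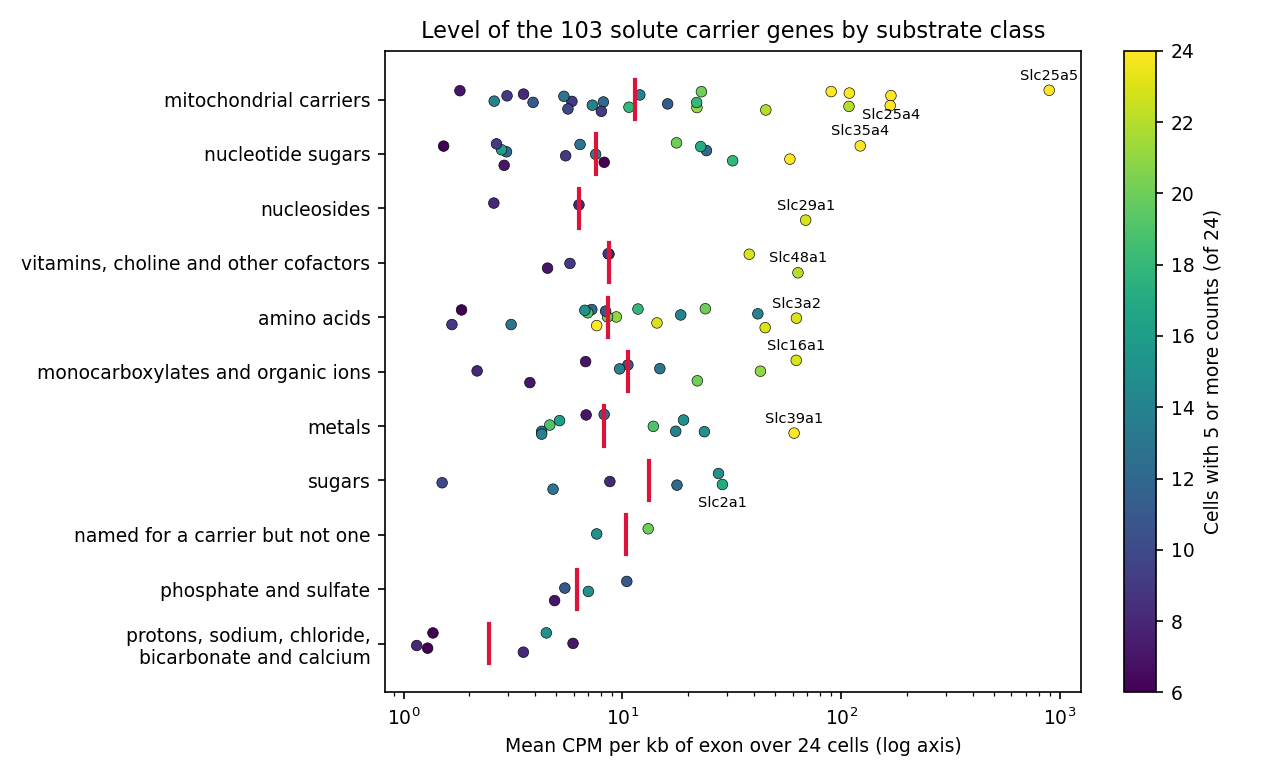
Mean level over 24 cells of each of the 103 members, in CPM per kb of exon on a log axis, by substrate class. Each point is a gene, coloured by the number of cells in which it had 5 or more counts, and the red bars are class medians. Slc25a5, at 893 CPM per kb, stands apart from all other members, and most of the yellow points, which are genes detected in all or nearly all cells, lie to the right.

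Slc25a5, the adenine nucleotide translocase ANT2 that exchanges ADP for ATP across the inner mitochondrial membrane (chromosome X, 36795651 to 36798807, plus strand, GRCm38), was the highest member per kb. It was at 1470 ± 346 CPM, with a lowest value of 583 in cell 19, a median of 1524 and a highest of 1926 in cell 13. Processed copies of this gene exist in the genome, so reads could be split among them and its value is uncertain. Its paralogue Slc25a4 (ANT1, chromosome 8, 46206797 to 46211284, minus strand) was at 397 ± 201 CPM, between 83.5 and 809 CPM. Per kb, Slc25a5 was higher than Slc25a4 in all 24 cells, with means of 893 and 169 CPM per kb.

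Slc25a3, which brings phosphate into mitochondria, was at 930 ± 276 CPM, from 182 to 1499 CPM. The citrate carrier Slc25a1 was at 236 ± 187 CPM and the oxoglutarate carrier Slc25a11 at 230 ± 192 CPM. The Slc25a11 value leaned on cell 23, at 892 CPM, and was 201 CPM without it. Its span overlaps Rnf167 on the opposite strand, so without strand information its value is uncertain. Slc25a17, a peroxisomal carrier of the same family, was at 129 ± 82.0 CPM in 22 cells.

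Carriers with a link to haem and iron-sulfur synthesis were found at different levels. Slc25a39, a mitochondrial glutathione carrier, was detected in every cell at 248 ± 138 CPM, from 46.2 to 576 CPM. Its paralogue Slc25a40 fell below the member threshold, with 5 or more counts in 4 cells and a mean of 6.82 CPM. Slc25a38, which brings glycine into mitochondria for the first step of haem synthesis, was at 63.1 ± 41.8 CPM and was detected in 20 cells, with 0 counts in 3. Slc48a1, a haem carrier of endosomes and lysosomes, was detected in 22 cells at 175 ± 139 CPM, or 152 CPM without cell 12, which had 694.

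Outside the mitochondrial class, 4 members were detected in all 24 cells. They were Slc35a4, of the nucleotide sugar carrier family, at 400 ± 158 CPM, Slc35b2, which carries the sulfate donor PAPS into the Golgi, at 181 ± 97.7 CPM, the zinc importer Slc39a1 at 144 ± 93.4 CPM, and the glutamine carrier Slc38a1 at 132 ± 78.8 CPM. Their lowest cells were at 102, 15.7, 31.5 and 22.6 CPM in that order. With Slc25a5, Slc25a4, Slc25a3, Slc25a1 and Slc25a39 these make up the 9 members found in every cell.

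Among the amino acid carriers, Slc3a2 had the highest level, 62.5 CPM per kb. It encodes the heavy chain that carries several Slc7 light chains to the plasma membrane, and was at 220 ± 137 CPM in 23 cells. Its light chain Slc7a5, which with it forms the large neutral amino acid exchanger LAT1, was at 31.7 ± 41.3 CPM and was highest in cell 5, at 175 CPM. Slc7a5 was found in 20 cells, and Slc3a2 was also found in all 20 of them (rho between the levels 0.40). A second light chain, Slc7a6, was at 109 ± 91.8 CPM and was found with Slc3a2 in 19 cells. Per kb, Slc7a6 was at 24.0 and Slc7a5 at 8.56. Slc7a11, the light chain of the cystine exchanger, reached 5 counts in no cell, and Slc7a7 in 1 cell.

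The glutamine and neutral amino acid exchanger Slc1a5 (ASCT2) was at 188 ± 134 CPM in 23 cells, whereas its relative Slc1a4 was detected in 1 cell. Slc38a1 and Slc38a2, sodium-coupled glutamine carriers that lie 44478 bases apart on chromosome 15, were found together in 21 cells, and Slc38a1 alone in 3. Their levels were not related across the cells (rho 0.12). Slc38a1 averaged 7.63 and Slc38a2 9.38 CPM per kb, and Slc38a1 was the higher per kb in 11 of 24 cells.

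Glucose carriers were found unevenly. Slc2a1 (GLUT1), known as the main glucose carrier of human red cells, was at 100 ± 93.6 CPM, with a median of 83.9 and a highest value of 297 CPM, and was detected in 17 cells. Slc2a3 (GLUT3) was at 34.9 ± 46.2 CPM in 13 cells. Both were detected in 11 cells, Slc2a1 alone in 6, Slc2a3 alone in 2 and neither in 5 (rho 0.02). Slc2a1 was at 0 counts in 4 cells. Hexokinase 1 (Hk1) and lactate dehydrogenase A (Ldha), enzymes at both ends of glycolysis, were detected in every cell, at 267 ± 144 and 3681 ± 930 CPM.

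Lactate and pyruvate carriers were found in nearly all cells. Slc16a1 (MCT1) was at 276 ± 182 CPM in 23 cells and Slc16a3 (MCT4) at 117 ± 118 CPM in 20. Slc16a1 was higher per kb in 22 of 24 cells. Bsg, the chaperone that takes both to the membrane, was detected in all 24 cells at 415 ± 90.6 CPM.

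The highest nucleoside carrier was Slc29a1 (ENT1), at 276 ± 199 CPM in 23 cells and 68.8 CPM per kb, a member that lies 17528 bases from Slc35b2 on chromosome 17. Slc29a2 (ENT2) was detected in 8 cells, all of which had Slc29a1 too, and Slc29a1 was higher per kb in all 24. The reduced folate carrier Slc19a1 was at 177 ± 104 CPM in 23 cells. The urea carrier Slc14a1, known for the Kidd blood group in human red cells, was at 171 ± 142 CPM in 21 cells. Among the choline-like carriers, Slc44a2 was detected in 18 cells and Slc44a1 in 2.

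The 28 partner and nutrient-sensing genes set beside the carriers include chaperones, glycolytic enzymes and parts of the mTORC1 pathway. They were chosen with earlier results of these data known. Of the 28 genes, 23 passed the threshold of 6 cells, where 8266 of all 49585 genes did. In every cell 5 were found, and 14.9% of the 8266 genes were. Those 5 were Bsg, Hk1, Ldha, Myc and Lamtor2, a lysosomal scaffold of mTORC1. The amino acid sensors Castor1 and Sesn2 were each detected in 2 cells.

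Many members were high in some cells and at 0 counts in others. A gene was called on-off when it had 50 CPM or more in at least 6 cells and 0 counts in at least 6 cells. Where a gene had 0 counts, a level of up to 3 counts (between 1.39 and 3.42 CPM in these cells) cannot be told from absence, and the 50 CPM line lies above this floor in every cell. Such limits cover counting error only, since copies made by PCR are not independent molecules. By this rule 29 of 103 members (28.2%) were on-off, against 18.2% of the 8266 genes. Nearly all on-off genes had a middle level: 1489 of the 1508 had a mean of 20 to 100 CPM. Among genes with a mean of 20 to 100 CPM, 29 of 62 members (46.8%) were on-off, against 35.6% of 4183 genes. In both counts the share of members was above the background. Amplification of a single cell's RNA can lose a transcript altogether, and how far this sets the zeros was not tested.

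**Figure D2:**
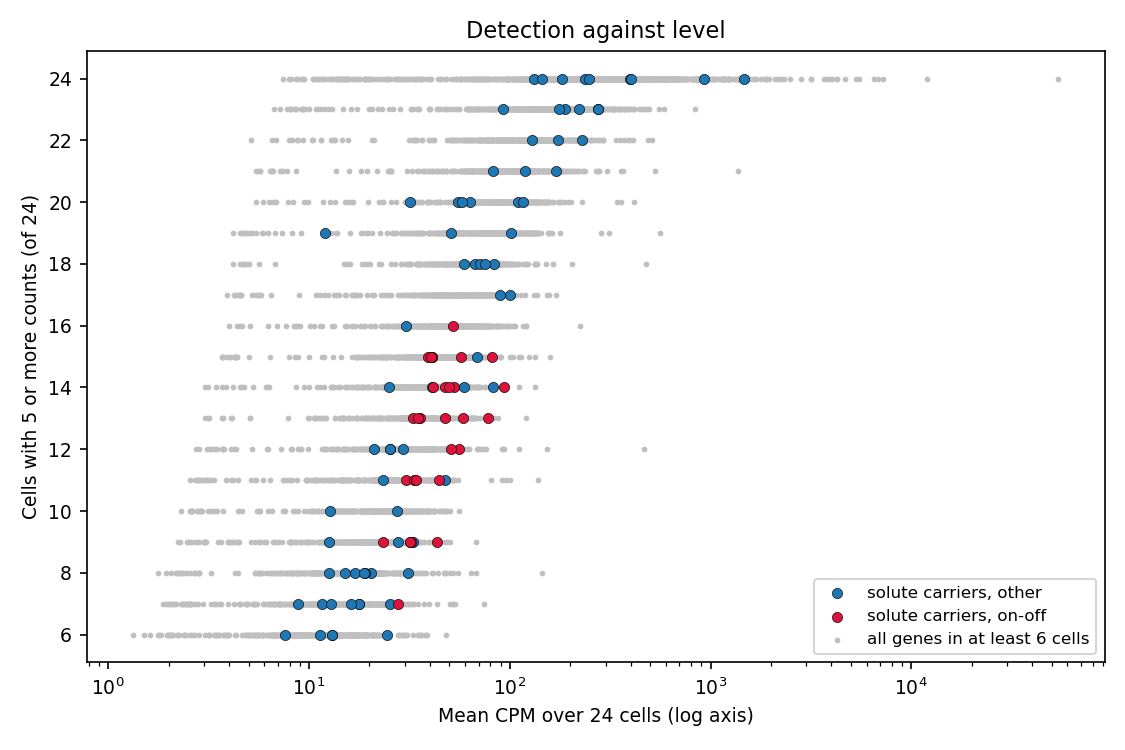
Number of cells with 5 or more counts (of 24) against the mean level over 24 cells in CPM on a log axis, for the 103 members and for all 8266 genes detected in at least 6 cells (grey). The 29 on-off members (red) lie at means between 23.4 and 93.3 CPM and were detected in 7 to 16 cells, among grey points of the same level.

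The on-off members came from many classes. They included 6 of 24 mitochondrial carriers, 5 of 11 metal carriers, 4 of 17 amino acid carriers, 4 of 15 nucleotide sugar carriers, 3 of 6 sugar carriers and 3 of 4 in the phosphate and sulfate class. The 3 of the phosphate and sulfate class were Slc20a1, Slc20a2 and Slc17a9, the last placed there by family and not by substrate. None of the 3 nucleoside carriers or the 6 vitamin, choline and cofactor carriers was on-off, but these classes are small. In the second, Slc19a2 and Slc52a2 fell just short of the rule, with 50 CPM or more in 5 cells each. They had 0 counts in 11 and 13 cells. A cell had between 4 on-off members at 50 CPM or more, in cell 2, and 17, in cell 9, with a median of 10.

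Slc18a2, the vesicular monoamine carrier VMAT2, was high in a few cells. It was at 77.5 ± 138 CPM, with 0 counts in 9 cells and 50 CPM or more in 7. Those 7 cells were cell 23 at 544, cell 24 at 331, cell 3 at 307, cell 10 at 167, cell 22 at 162, cell 18 at 133 and cell 9 at 74.0 CPM. Slc22a3, an organic cation carrier that takes up monoamines, also had its highest value in cell 23, 405 CPM, but was at or near 0 in cells 3, 9, 10 and 22. Cell 23 had the fewest counts of all cells. Cell 24 had the highest sum of markers of mast cells and basophils, cells known for storing amines, but that sum was all Cpa3. Of the same list, Hdc was highest in cell 6, at 316 CPM, where Slc18a2 was at 16.6 CPM. Mcpt8, Ms4a2 and Gzmb reached 5 counts in no cell. Over the 24 cells Slc18a2 had a rho of 0.30 with Cpa3, a mast cell protease, and 0.04 without cells 23 and 24. Its rho with total counts was -0.56. The part of other cell types or of depth in this pattern was not tested.

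Slc38a5 (SNAT5), a carrier of glutamine and other amino acids, was at 50 CPM or more in 12 cells and at 0 counts in 6. Its median was 49.0 CPM and its highest value 474 CPM in cell 5. Slc25a12, an aspartate-glutamate carrier of the malate-aspartate shuttle, was at 50 CPM or more in 7 cells, with 324 CPM in cell 1, and at 0 counts in 12. Its paralogue Slc25a13 was detected in 18 cells. Both were found in 8 cells, Slc25a12 alone in 1, Slc25a13 alone in 10 and neither in 5. The phosphate importers Slc20a1 and Slc20a2 were both found in 8 cells, Slc20a1 alone in 7, Slc20a2 alone in 3 and neither in 6.

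Slc15a4, a lysosomal carrier of histidine and peptides, was at 330 CPM in cell 19 and 215 CPM in cell 24, with 0 counts in 10 cells. The taurine carrier Slc6a6 was at 331 CPM in cell 19 and 267 CPM in cell 9. The glucose-6-phosphate carrier Slc37a4 was at 259 CPM in cell 10 and at 0 counts in 9 cells. The copper importer Slc31a1 was highest in cell 4, at 480 CPM, and had 0 counts in 7 cells, but its span overlaps that of Cdc26 on the opposite strand. The same holds for the zinc carriers Slc39a6, which overlaps Elp2 (215 CPM), and Slc39a9, which overlaps Erh (241 CPM). In all, 29 members overlap another counted gene, 15 of them a protein-coding gene. The libraries carry no strand information, so these values are uncertain.

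**Figure D3:**
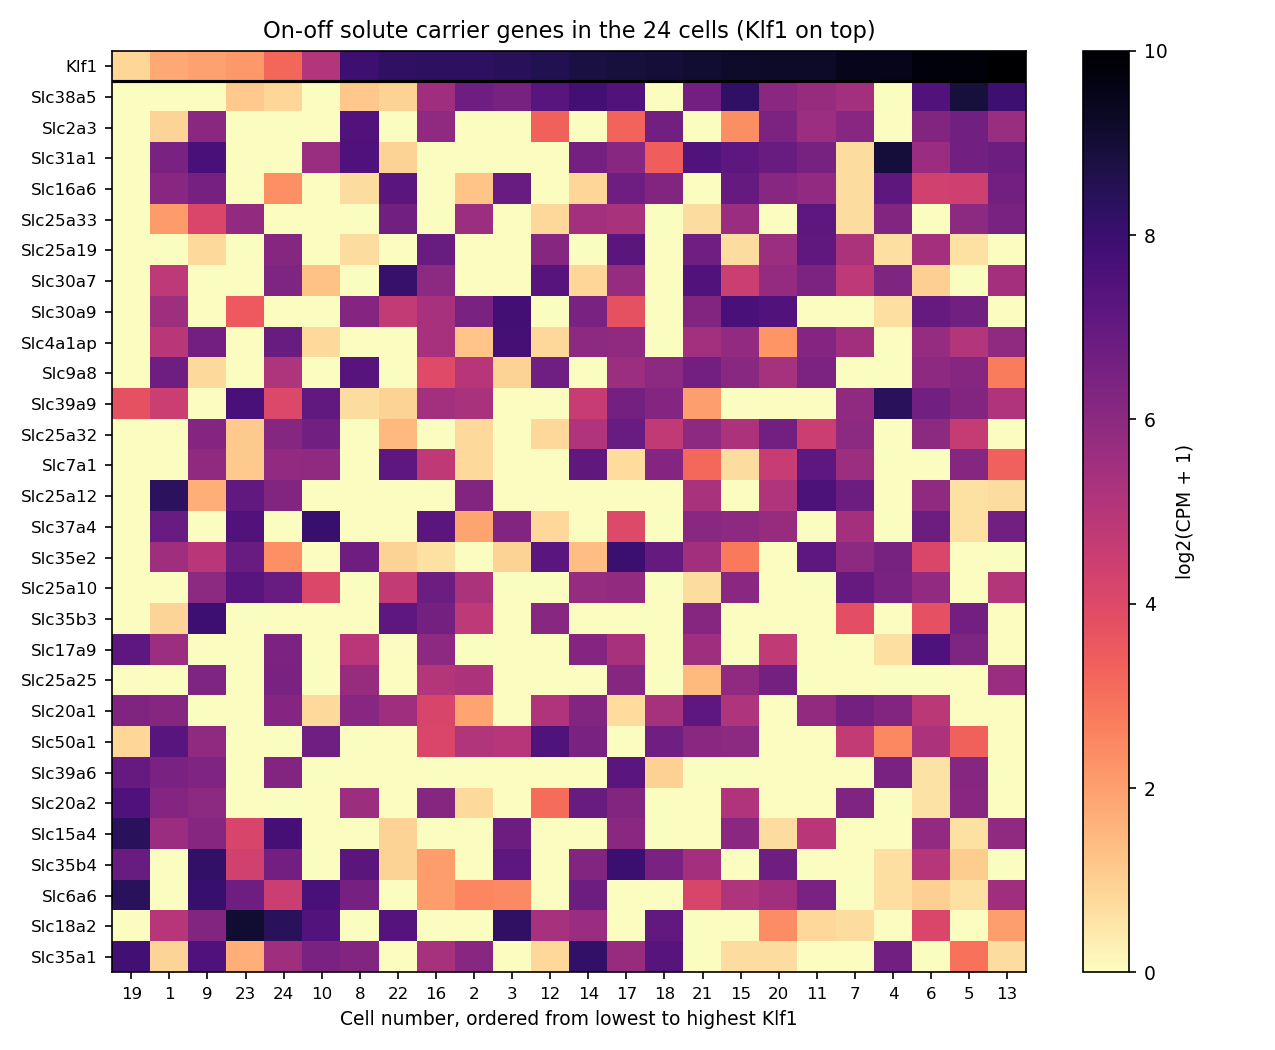
Level of the 29 on-off members in each of the 24 cells, as log2(CPM + 1), with Klf1 in the top row. Cells run from lowest to highest Klf1 and genes from highest to lowest rho with Klf1. Most genes are on in scattered cells along the whole axis, while Slc38a5 is at or near 0 in the 8 cells of lowest Klf1.

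Across cells the members did not move as a block. Over all 5253 pairs of members the median rho was 0.01, as it was over all genes, and 0.952% of member pairs had a rho of 0.5 or more, against 0.956% of all pairs of the 8266 genes. The pairs at the extremes are named after their values were seen. The highest was Slc25a13 with Slc19a1, at 0.78, followed by Slc7a5 with Slc19a1 at 0.74. Slc25a13 and Slc7a5 had a rho of 0.67, so the aspartate-glutamate carrier, the folate carrier and LAT1 were high in the same cells. All 3 were high in cells 4 and 5, where Slc19a1 was at 324 and 448 CPM and Slc7a5 at 123 and 175 CPM. The 3 plate columns of 8 cells were inferred from the digit that ends each cell's name in the deposited counts. Within them the rho of Slc7a5 with Slc19a1 was 0.88, 0.57 and 0.67. That of Slc25a13 with Slc19a1 was 0.95, 0.24 and 0.43. The lowest were Slc25a38 with Slc35b3 at -0.74 and Slc43a1 with Slc1a5 at -0.71, which are the mitochondrial glycine carrier against a PAPS carrier, and a leucine carrier against ASCT2.

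In the relation to Klf1, 6 of 103 members (5.83%) followed it with a Spearman rho of 0.5 or more over the 24 cells, against 3.56% of 8265 genes. A single member (0.971%) ran against it at -0.5 or less, against 2.0% of those genes. The median rho was 0.02 for the members and 0.06 for all genes. The remaining members lay between these lines. Both counts are small, and neither share was far from the background. The followers numbered 3 without cell 23, and 3 when cells were scaled by size factors. The count against Klf1 was 0 without cell 1, 2, 5, 8, 10, 19, 23 or 24, 3 without cell 4, and 2 without cell 3, 6, 11, 12, 13, 14, 15, 17, 18, 21 or 22. Klf1 itself moved with total counts (rho 0.65, r 0.61, and 0.63 without cells 5 and 13), with a rho of 0.67, 0.55 and 0.69 in the plate columns. It ran against the summed myeloid markers (rho -0.69). Its rho was 0.16 with the mast cell and basophil sum and -0.35 with the endothelial sum. The 5 cells with Klf1 under 10 CPM include the cells of the highest myeloid, mast cell and endothelial marker sums. The mast cell peak was Cpa3 alone and the endothelial peak Pecam1 alone. The part of depth and of other cell types in the relations below was not tested.

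The 6 followers were Slc25a4 (rho 0.68), Slc10a7 (0.63), Slc38a5 (0.62), Slc29a1 and Slc25a5 (0.52 each) and Slc29a2 (0.51). Both adenine nucleotide translocases and both plasma membrane nucleoside carriers among the members were thus on the list. The promoters of all 6 followers are shown because these genes had the highest rho with Klf1. Each is the 250 bases before the most upstream start of transcription in the RefSeq set used (GRCm38.p6), 5′ to 3′ on the gene's strand. Capitals mark matches to CCNCNCCC or its reverse complement GGGNGNGG, a motif of the kind that KLF factors bind. The GATA motif AGATAA is capitalised likewise, on either strand. Overlapping matches run together.
Slc25a4: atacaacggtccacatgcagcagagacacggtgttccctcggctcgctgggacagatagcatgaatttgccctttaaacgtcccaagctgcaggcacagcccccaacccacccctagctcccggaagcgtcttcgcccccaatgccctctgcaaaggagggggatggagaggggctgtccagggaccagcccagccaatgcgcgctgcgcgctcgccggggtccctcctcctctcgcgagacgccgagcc
Slc10a7: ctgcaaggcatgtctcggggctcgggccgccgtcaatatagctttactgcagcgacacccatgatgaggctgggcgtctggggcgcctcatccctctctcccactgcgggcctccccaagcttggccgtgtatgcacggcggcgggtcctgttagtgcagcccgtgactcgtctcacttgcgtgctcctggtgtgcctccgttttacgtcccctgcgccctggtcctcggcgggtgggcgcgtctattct
Slc38a5: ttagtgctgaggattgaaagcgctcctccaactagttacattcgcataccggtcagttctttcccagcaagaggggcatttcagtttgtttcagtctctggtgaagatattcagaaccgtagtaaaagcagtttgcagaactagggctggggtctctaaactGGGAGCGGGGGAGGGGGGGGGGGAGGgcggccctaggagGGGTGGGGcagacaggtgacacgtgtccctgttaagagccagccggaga
Slc29a1: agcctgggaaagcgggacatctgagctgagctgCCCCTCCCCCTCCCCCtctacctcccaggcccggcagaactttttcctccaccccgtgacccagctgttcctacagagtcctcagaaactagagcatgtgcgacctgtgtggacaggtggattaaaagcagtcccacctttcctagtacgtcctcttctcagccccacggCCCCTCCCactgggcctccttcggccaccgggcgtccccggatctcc
Slc25a5: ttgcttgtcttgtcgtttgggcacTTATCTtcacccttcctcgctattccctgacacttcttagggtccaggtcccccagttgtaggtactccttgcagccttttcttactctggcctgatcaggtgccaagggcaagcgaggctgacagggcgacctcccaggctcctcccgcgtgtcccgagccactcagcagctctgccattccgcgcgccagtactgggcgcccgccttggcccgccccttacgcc
Slc29a2: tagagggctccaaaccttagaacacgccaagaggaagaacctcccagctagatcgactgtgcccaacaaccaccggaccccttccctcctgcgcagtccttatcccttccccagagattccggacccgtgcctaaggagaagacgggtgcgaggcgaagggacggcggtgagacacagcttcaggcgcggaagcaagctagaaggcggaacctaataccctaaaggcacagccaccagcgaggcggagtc

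They lie at chr8:46211063-46211312 (minus strand) for Slc25a4, chr8:78509078-78509327 (plus) for Slc10a7, chrX:8271131-8271380 (plus) for Slc38a5, chr17:45599619-45599868 (minus) for Slc29a1, chrX:36795347-36795596 (plus) for Slc25a5 and chr19:5023756-5024005 (plus) for Slc29a2. The Slc38a5 window held 9 KLF matches, most of them overlapping in a G-rich stretch, the Slc29a1 window 5, and the windows of the other 4 followers none. Among the 6 windows, that of Slc25a5 held a GATA match. The windows of Slc38a5, Slc25a4 and Slc29a2 overlap the gene itself in the GENCODE M21 annotation. There Slc38a5 starts at 8271133, so nearly its whole window lies inside the gene. The KLF letters were in 56 of the 78 members with a promoter in the RefSeq table (71.8%), against 63.8% of 6379 genes detected in at least 6 cells and 45.6% of all 27025 promoters. The GATA letters were in 3 of 78 (3.85%), against 5.44% and 10.2%. A match describes letters in a window and does not show binding.

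Slc25a4 had the highest rho with Klf1 (r 0.57). In the 5 cells with Klf1 under 10 CPM it was at 83.5, 465, 137, 204 and 249 CPM (cells 19, 1, 9, 23 and 24), and in the 3 cells of highest Klf1 (6, 5 and 13) at 612, 490 and 481 CPM. The highest value, 809 CPM, was in cell 15. All 3 of these values lay above the 5 low cells, with cell 1 close below them. Over the 19 cells with Klf1 at 10 CPM or more the rho was 0.61, and ranked within plate columns it was 0.72. Its rho with total counts was 0.42.

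Slc38a5 had 0, 0, 0, 1.14 and 0.812 CPM in the same 5 cells (19, 1, 9, 23 and 24) and no more than 1.24 CPM in the next 3 by Klf1 (10, 8 and 22). In the other 16 cells it lay between 42.3 and 474 CPM, except cells 18 and 4, which had 0 counts at 502 and 735 CPM of Klf1. Each of the 14 cells in which it was detected had Klf1 at 314 CPM or more, and cells 18 and 4 show that not every such cell had it. Over the 19 cells the rho was 0.43, and ranked within plate columns 0.66. Its rho with total counts was 0.28.

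Slc29a1 (rho 0.52) was at 429, 7.43, 219, 1.14 and 207 CPM in cells 19, 1, 9, 23 and 24, so the cell of lowest Klf1 was among the higher ones. Its highest values were 678 CPM in cell 14 and 639 CPM in cell 13. Over the 19 cells the rho was 0.60, and ranked within plate columns 0.37. Slc25a5 (rho 0.52) was lowest in cells 19 and 23, at 583 and 857 CPM, but at 1779 CPM in cell 24. Over the 19 cells its rho was 0.43, and under size factors 0.41. The rho of Slc25a5 with total counts was 0.27. With the number of genes detected it was 0.62, larger than that with Klf1.

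Slc10a7 and Slc29a2 were each detected in 8 cells only, so their rho rests on few values. Over the 19 cells with Klf1 at 10 CPM or more the rho of Slc10a7 was 0.47 and that of Slc29a2 0.53, and the Pearson r over 24 cells was 0.47 and 0.31. Slc10a7 was at 0 in the 5 cells with Klf1 under 10 CPM and in 7 others, and reached 118 CPM in cell 13 and 106 CPM in cell 21. Slc29a2 was at 137 CPM in cell 7 and 131 CPM in cell 15, and at 0 in 15 cells. Its rho with total counts, 0.51, was as large as that with Klf1.

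By Pearson r on log2(CPM + 1) the order differed. The urea carrier Slc14a1 had the highest r with Klf1, 0.76 (0.75 without cells 5 and 13), against a rho of 0.35. It was at 62.4, 0, 4.98, 0 and 0.812 CPM in cells 19, 1, 9, 23 and 24, and at 37.1 CPM or more in each of the other 19 cells. Over those 19 cells its rho with Klf1 was -0.26. Slc38a5 came next, with an r of 0.69.

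Slc38a1 was the member that ran against Klf1 (rho -0.50). It was at 276, 215, 122, 186 and 183 CPM in cells 19, 1, 9, 23 and 24, with the highest value, 309 CPM, in cell 10, the cell of the highest hepatocyte marker sum. Its lowest values were 22.6 CPM in cell 15 and 27.4 CPM in cell 5, cells in which its paralogue Slc38a5 was at 297 and 474 CPM. These 2 genes were set side by side after their values were seen. They come from opposite ends of the rho with Klf1, so a negative rho between them is partly a consequence of the choice. The rho between the 2 glutamine carriers was -0.62 (r -0.60), and -0.54 without cells 10 and 19. Within the plate columns it was -0.70, -0.79 and -0.49. Over the 19 cells with Klf1 at 10 CPM or more the rho of Slc38a1 with Klf1 was -0.21. Slc7a6 (rho -0.50) fell just short of the line, and Slc35a1, the CMP-sialic acid carrier, Slc25a16 and Slc18a2 followed at -0.42, -0.40 and -0.36.

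**Figure D4:**
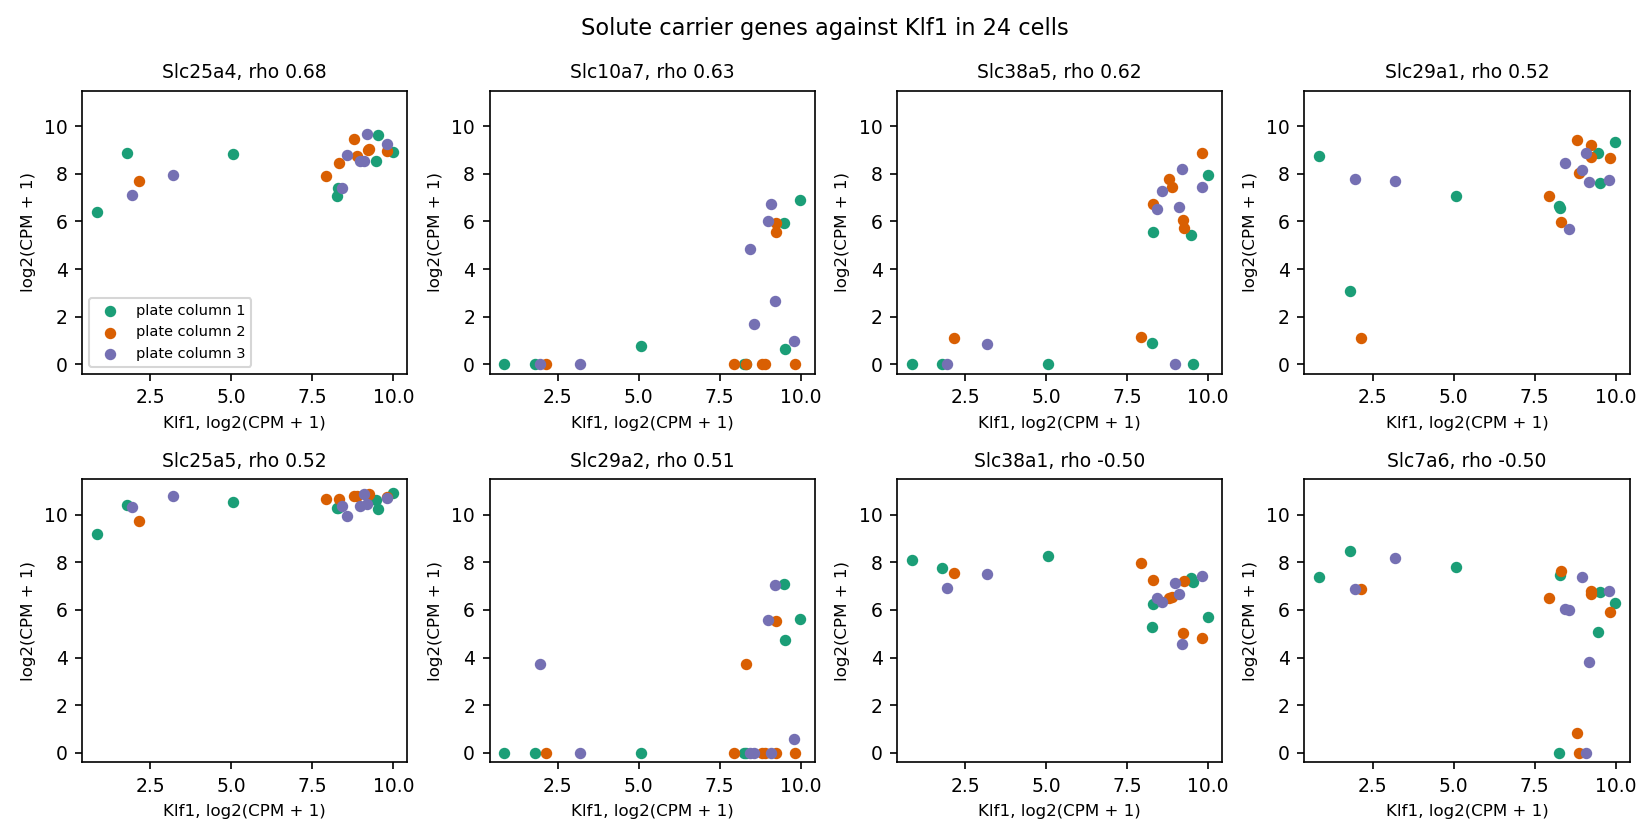
Level of 8 members against Klf1 in 24 cells, both as log2(CPM + 1), coloured by plate column, for the 6 members of highest rho and the 2 of lowest. Slc25a5 varies little while Klf1 spans its whole range, Slc38a5 is near 0 up to a log2 Klf1 of about 8 and mostly high above it, and Slc38a1 runs the other way.

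Other regulators were set against the members in the same manner, after the data had been seen. For Gata1, 0 members followed and 0 ran against it, where 1.20% and 0.690% of all genes did. For Gata2, 1 member followed (0.971%), Slc35c1, the GDP-fucose carrier, at 0.51, against 0.859% of genes, and 0 ran against it, where 0.665% did. For Myc, 2 members followed (1.94%), Slc10a7 at 0.62 and Slc25a5 at 0.58, against 2.34% of genes, and 1 ran against it (0.971%), Slc35a1 at -0.52, against 0.895%. Among the 28 partner genes 1 followed Klf1, where 3.56% of 8265 genes did, so this count is near the background. It was Timm10, a chaperone for import of mitochondrial carriers, at 0.51, just past the line.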

How the data were processed

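The authors deposited whole-number counts of reads for every gene in 24 single cells, and these counts entered every step unchanged. Per the submitters' processing notes, the tools were STAR 2.4 and featureCounts, and the build was GRCm38. The sources used here do not give the gene annotation, the counting settings or whether cells were filtered. Libraries were made with Smart-seq2 from polyadenylated RNA, without strand information, per the labels' protocols. Symbols, coordinates and exon lengths came from GENCODE M21 (GRCm38), in which 49326 of 49585 identifiers matched.

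Counts were scaled to CPM by each cell's total and divided by the union of exons for CPM per kb. Correlations are Spearman rho over 24 cells, with Pearson r on log2(CPM + 1), and describe these cells only. With 1 group and no embryo named, no test was made. The scripts (Python 3.11.15, pandas 2.3.3, scipy 1.17.1) were tested on simulated data. There the on-off and following genes were planted at means of 100 CPM or more. Recovery at the levels of the on-off members (23.4 to 93.3 CPM) was therefore not tested. Total counts of 876983 to 2155010 set the floor of 3 counts at 1.39 to 3.42 CPM.

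The members, classes, pairs, partner list and thresholds were chosen with earlier results of these data known. Named genes are the 3 highest members per class per kb, the 10 highest by CPM, up to 12 on-off members with the most zeros, the 5 members at each end of rho with Klf1, members of listed pairs, and a fixed set of nutrient and haem carriers. Others were named after their values were seen. Alternatives changed the detection and on-off thresholds, the scaling, the depth (cells thinned to 876983 counts), the gene length, the correlation measure, the cells used and the plate column. Mouse protein sequences were not used here.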

Additional observations from a re-analysis of the deposited data

How the results depend on the processing

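The count of 103 members was 124 with 1 count in place of 5 and 102 with 10 counts, 143 with 3 cells in place of 6 and 67 with 12 cells. The count of members found in every cell was 9, and it was 18 when a single count sufficed. On-off members numbered 29, with 52 at 20 CPM, 5 at 100 CPM, 37 in thinned cells (all 29 among them) and 24 to 28 when a cell was left out. The mitochondrial share of 56.9% was 57.6% with the longest transcript as gene length. Members that followed Klf1 numbered 6, with 3 under size factors, 10 at a rho of 0.4 and 3 at 0.6, and 3 (without cell 23) to 7 when a cell was left out. Of these, Slc25a4, Slc10a7 and Slc38a5 stayed at 0.5 or more without each cell in turn, with a lowest rho of 0.64, 0.57 and 0.57. Slc10a7 was under 0.5 in thinned cells (0.48), in the 19 cells with Klf1 at 10 CPM or more (0.47) and by Pearson r (0.47, and 0.45 at a pseudocount of 10), and Slc38a5 in the 19 cells (0.43). The single member against Klf1 became 2 under size factors, under totals without mitochondrial and ribosomal RNA, with Pearson r at a pseudocount of 10, and with ranks within plate column. That count was 4 at a rho of -0.4 and 0 at -0.6, 0 in cells with Klf1 at 10 CPM or more, and 0 to 3 when a cell was left out. The cause of these changes was not tested. Counts near 0 limit the rho of members found in few cells.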

Other observations

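Several Slc genes below the detection threshold were high in single cells. They were picked after their values were seen, and no explanation was tested. Slc5a11, an inositol carrier of the sodium-glucose family, reached 309 CPM in cell 23 and 163 CPM in cell 19 and was detected in 3 cells. Slc9a9, an endosomal sodium-proton exchanger, reached 236 CPM in cell 24 and 181 CPM in cell 19. Slc5a3, another inositol carrier, reached 185 CPM in cell 12. Slc2a9, a urate carrier, was detected in cell 23 only, at 173 CPM. In cell 23, Slc12a9 reached 202 CPM, Slc31a2 178 CPM and Slc25a45 160 CPM. Cell 23 had 876983 counts, the fewest of the 24 cells, and cells 19, 23 and 24 were among the 5 with Klf1 under 10 CPM.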
